A study of Drosophila melanogaster with 6 samples.

Results

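The myosin motors of Drosophila macrophages and the proteins that switch them on and off were followed through 10 genes of 17494 listed. They are the chains of non-muscle myosin II (zip, sqh, Mlc-c), its kinases (Rok, Strn-Mlck), its phosphatase (Mbs, flw) and the unconventional myosins (jar, ck, didum). Their rows were taken by gene symbol, and all 10 symbols were found in each of the 6 samples. The genes were chosen with earlier results of these data known. The question was whether blocking the transcription factor Dfos in macrophages changes the mRNA of the contractile machinery. The mac>DfosDN group, titled DfosDN in the sample labels, has 3 samples of macrophages from embryos that carry srpHemo-Gal4, srpHemo-3xmCherry and UAS-DfosDN. The control group, titled WT, has 3 samples from embryos with the same driver and the same mCherry marker and no UAS transgene. DfosDN is a truncated Dfos protein without the part that activates transcription. It can still occupy target DNA with its partners and so acts as a dominant negative. The driver srpHemo-Gal4 is active in macrophages, so the transgene acts in the cells that were sorted. The embryos were kept at 29°C and the labels give stage 11, when macrophages begin to move into the germband. Each sample pooled mCherry-positive cells sorted from collections of embryos, and in such bulk RNA fewer cells of a type and less RNA per cell cannot be told apart.

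Myosin II is the motor that slides actin filaments against each other and makes the cell cortex contract. It is a hexamer of heavy chains with regulatory and essential light chains, and it becomes active when its regulatory light chain is phosphorylated. Kinases such as Rok phosphorylate that light chain, and myosin phosphatase, a targeting subunit joined to a catalytic PP1 subunit, removes the phosphate. In migrating cells such as macrophages this contraction pulls in the rear and shapes the cortex. Unconventional myosins mostly carry cargo or tether membranes to actin.

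The level unit throughout is scaled TPM, reads per exon length brought to a common library scale, and the fold change is that of log2(TPM + 1), which understates the change of genes with a low TPM. The deposited values of 1 or more have lost their decimal points. To restore these, the powers of 10 that give whole reads were found, mostly several for a value. A model with a single mean for all libraries then chose the most probable, so each value of such a gene is an estimate. Restored reads came to between 8400541 and 9021035 in the mac>DfosDN libraries and to between 8730754 and 9843141 in the control libraries. kay, the gene of Dfos, whose reads can come from the transgene as well, had 941, 945 and 866 reads in mac>DfosDN macrophages and 368, 784 and 665 in control macrophages, a ratio of mean TPM of 1.58. The groups did not overlap, but after adjustment kay was short of the threshold (limma, adjusted p = 0.298). The macrophage label was checked with 12 fixed markers, of which 11 had a certain decimal point and were tested. NimC4 (Simu), an engulfment receptor of embryonic macrophages, stood at between 58746 and 111011 reads in mac>DfosDN and between 143341 and 163678 in control libraries. Summed TPM of the macrophage markers was 8551 to 13095 in mac>DfosDN and 15702 to 21527 in control libraries, and without NimC4, which made up most of it, 1323 to 1771 in mac>DfosDN and 2018 to 3397 in control libraries. Of the 11 markers, 5 lay lower in every mac>DfosDN library than in any control library, against 11.4% of all genes tested. Their ratios ran from 0.457 (SPARC) to 0.714 (Pxn). Another (ush) lay higher in every one with a ratio of 1.46, against 10.7%, and 5 overlapped. The log2 fold change was negative for 9 and positive for 2, with a median of -0.49. At an unadjusted p under 0.05 (limma) there were 7, against 16.5% of all genes, and none passed the adjustment over all genes. Yolk and fat body markers summed to at most 2 reads in mac>DfosDN and 9 in control libraries, and germ cell markers to at most 35 and 33. Nervous system markers summed to between 1500 and 1787 reads in mac>DfosDN and between 993 and 1812 in control libraries, nearly all of them on elav. Of the crystal cell markers only lz had a certain decimal point, with at most 66 reads in mac>DfosDN and 68 in control libraries. PPO1 and PPO2 were set aside as uncertain. Their most probable reads were far higher, at 3110 to 4187 for PPO1 and 3596 to 31822 for PPO2 in mac>DfosDN libraries. Control libraries had 1359 to 11126 and 18095 to 84335. The level of crystal cell RNA thus cannot be read from lz alone. The part of these differences in the myosin values was not tested.

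None of the 10 genes passed the test over all genes. Of the 9 that passed the filter on low reads, 7 had a negative and 2 a positive log2 fold change, with a median of -0.21 beside -0.01 for all 7544 genes tested. With limma and Benjamini-Hochberg adjustment over all genes, 0 of the 9 were lower and 0 higher at an adjusted p under 0.05, where 0.848% of all genes tested were lower, 0.676% higher and 1.52% either. At an unadjusted p under 0.05 there were 2 of the 9 (sqh and flw), against 16.5% of all genes. With limma-voom on the restored reads the number past the adjustment was also 0. In 3 of the 9 (sqh, flw and Strn-Mlck) every mac>DfosDN sample lay below every control sample, against 11.4% of all genes, and in none did every mac>DfosDN sample lie above, against 10.7%. With 3 samples a group, the exact permutation test of a single gene cannot go below p = 0.1.

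**Figure D1:**
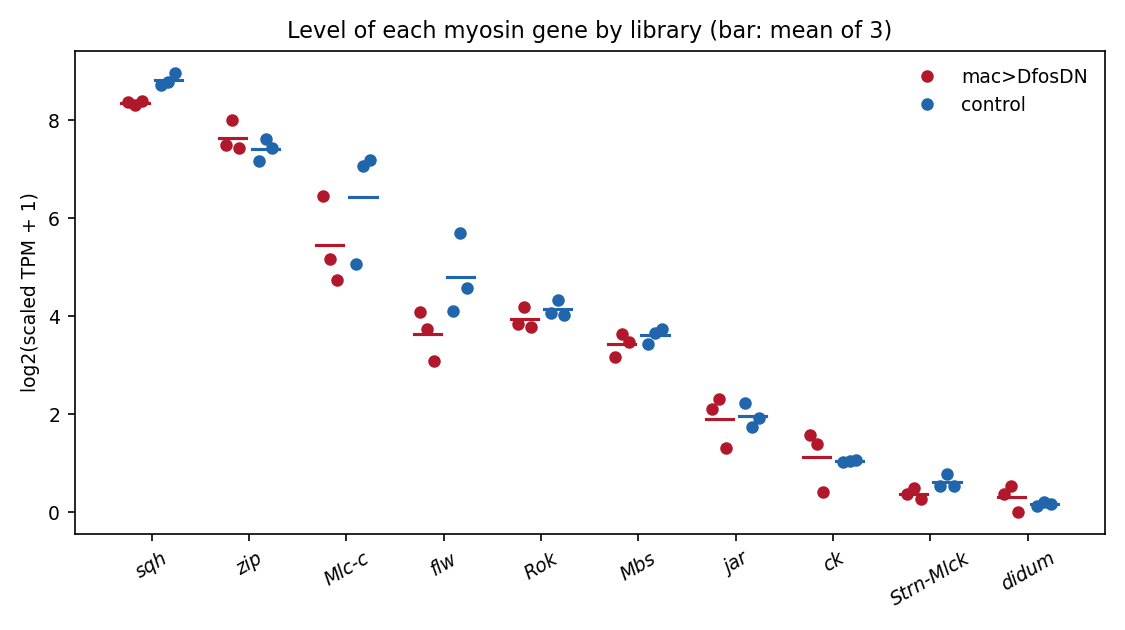
Scaled TPM of the 10 myosin genes on a log2(TPM + 1) axis, with a point for each library, mac>DfosDN in red to the left of control in blue, and a bar at the mean of 3. By this unit the chains of myosin II fill the top, and only sqh, flw and Strn-Mlck, of the 10, have groups that do not overlap.

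Ordered by scaled TPM in mac>DfosDN macrophages, sqh came first, then zip, Mlc-c, Rok, flw, Mbs, jar, ck, Strn-Mlck and didum. The ranges of Rok and flw, flw and Mbs, jar and ck, ck and Strn-Mlck, and Strn-Mlck and didum overlapped there. In control macrophages flw stood above Rok and the rest of the order was the same, with overlapping ranges for zip and Mlc-c, Mlc-c and flw, and flw and Rok. Over all 6 samples sqh ranked 250 and zip 449 by mean scaled TPM among the 7544 genes tested, whereas ck ranked 6741 and Strn-Mlck 7392. The libraries read 3′ ends, so that division by exon length places long genes low. By mean reads over all 6 samples, zip ranked 152 and sqh 275, and zip had more reads than sqh in every library. Rok, at 1252, then stood above Mlc-c, at 1348, and Strn-Mlck ranked 4646.

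The heavy chain gene zip (FBgn0265434 in the files, on chromosome 2R from 24990570 to 25011965 in the BDGP6.54 annotation) encodes the motor itself. It had 10072, 12565 and 9527 reads in mac>DfosDN macrophages, against 8527, 11327 and 8749 in control macrophages. On the scale of TPM these were 180.4, 258 and 172 in mac>DfosDN and 144, 197 and 172 in control libraries. The highest library was the second mac>DfosDN one, the groups overlapped, and the other two mac>DfosDN libraries lay within the control range. The means were 203 ± 47.3 TPM in mac>DfosDN and 171 ± 26.4 TPM in control macrophages (SD, n = 3 each). On the log2 scale zip differed by 0.24, with a 95% interval from -0.17 to 0.65 and a standard error of 0.18 (limma, adjusted p = 0.575). Leaving out each library in turn gave 0.07 (without the second mac>DfosDN library) to 0.36 (without the third), and 0.13 without the first control library.

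The regulatory light chain gene sqh (FBgn0003514, chromosome X from 6223061 to 6225140) encodes the chain whose phosphorylation turns the motor on. It had 4019, 3373 and 4049 reads in mac>DfosDN macrophages and 5410, 5503 and 5579 in control macrophages. Scaled to TPM, the mac>DfosDN libraries stood at 330.4, 318 and 336 and the control libraries at 419.6, 439 and 502. Every mac>DfosDN library was thus below every control library, and both groups were tight. The means were 328 ± 9.23 TPM in mac>DfosDN and 453 ± 43.2 TPM in control macrophages (SD, n = 3 each), a ratio of 0.723. The log2 fold change of -0.46 (standard error 0.12, 95% interval -0.73 to -0.19) had the smallest p of the 9 genes, 0.00325 before and 0.0881 after adjustment over all genes (limma), and thus did not pass. It lay between -0.51 and -0.39 when each library was left out in turn. The value of the first control library was placed 1 power of 10 above its smallest possible reading of 541 reads, with a posterior probability of 0.9997. With 541 reads in that library the difference would turn to 0.64 (adjusted p = 0.798 from limma).

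Since zip and sqh encode chains of the same motor, their TPM ratio within each library, which needs no scaling between libraries, was also compared. The ratio of zip over sqh was 0.546, 0.812 and 0.513 in mac>DfosDN libraries, against 0.343, 0.449 and 0.342 in control libraries. All 3 mac>DfosDN ratios were above all 3 control ratios. The difference was 0.70 on the log2 scale, a 1.63-fold higher ratio in mac>DfosDN (2-sided exact permutation test, p = 0.1, the smallest that 3 against 3 allow; 4 such ratios were compared). It lay between 0.50 and 0.83 when each library was left out in turn, the lowest without the second mac>DfosDN library. With 541 reads on sqh in the first control library it would be -0.40.

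**Figure D2:**
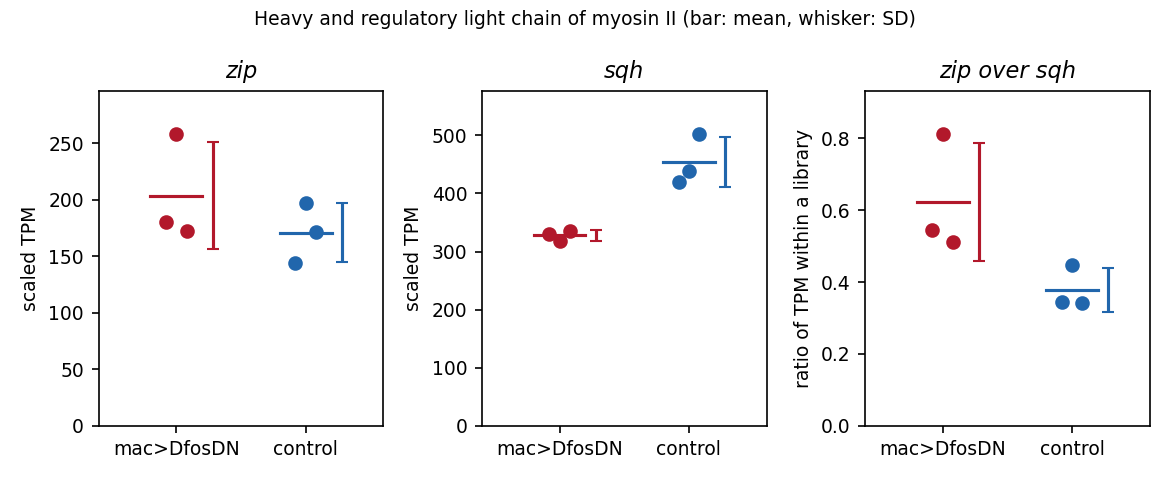
Scaled TPM of zip and of sqh and the ratio of zip over sqh within each library, with mac>DfosDN in red to the left of control in blue (points: libraries, bars: means, whiskers: SD, n = 3). The groups overlap for zip, while sqh is lower in all 3 mac>DfosDN libraries (318 to 336 TPM against 419.6 to 502) and the ratio is higher in all 3.

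The essential light chain gene Mlc-c (FBgn0004687, chromosome X from 5619136 to 5622539) encodes the chain that stiffens the lever arm of the motor. Its restored reads were 938, 329 and 277 in mac>DfosDN macrophages, against 371, 1485 and 1424 in control macrophages. The first control library lay among the low mac>DfosDN libraries, so the groups overlapped. Scaled to TPM the means were 49.3 ± 33.0 in mac>DfosDN and 104 ± 61.8 in control macrophages (SD, n = 3 each). The log2 fold change of -0.98 had a standard error of 0.56 and a 95% interval from -2.24 to 0.28 (adjusted p = 0.429 from limma). It was -1.66 without the first control library, -1.48 without the first mac>DfosDN library, and -0.61 without the third library of either group. The ratio of Mlc-c over sqh, which differed by -0.53 on the log2 scale, overlapped between the groups too, at 0.263, 0.110 and 0.0772 in mac>DfosDN and 0.0774, 0.304 and 0.288 in control libraries (2-sided exact permutation test, p = 0.5). Without the first control library the difference was -1.18 and the groups no longer overlapped, and without the third mac>DfosDN library it was -0.15.

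The decimal points of Mlc-c were less secure than those of zip and sqh. Depth-scaled reads differed 5.57-fold between its highest and lowest library. Over the 1676 placed genes with a geometric mean of 300 to 1000 reads, the median was 1.67-fold and the 99th percentile 4.09-fold. The model that placed those genes has a single mean for all libraries and so favours small spreads. The least certain value of Mlc-c, the 277 reads of the third mac>DfosDN library, had a posterior probability of 0.957. In a model with a mean for each group, the 371 reads of the first control library had 0.884, under the limit of 0.9, and Mlc-c was set aside there. The placement with the smallest spread, 4.11-fold, would give 938, 3290 and 2770 reads in mac>DfosDN and 3710, 1485 and 1424 in control libraries. With those reads the log2 fold change was 0.11 (adjusted p = 0.938 from limma), so the direction for Mlc-c rests on the placement.

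**Figure D3:**
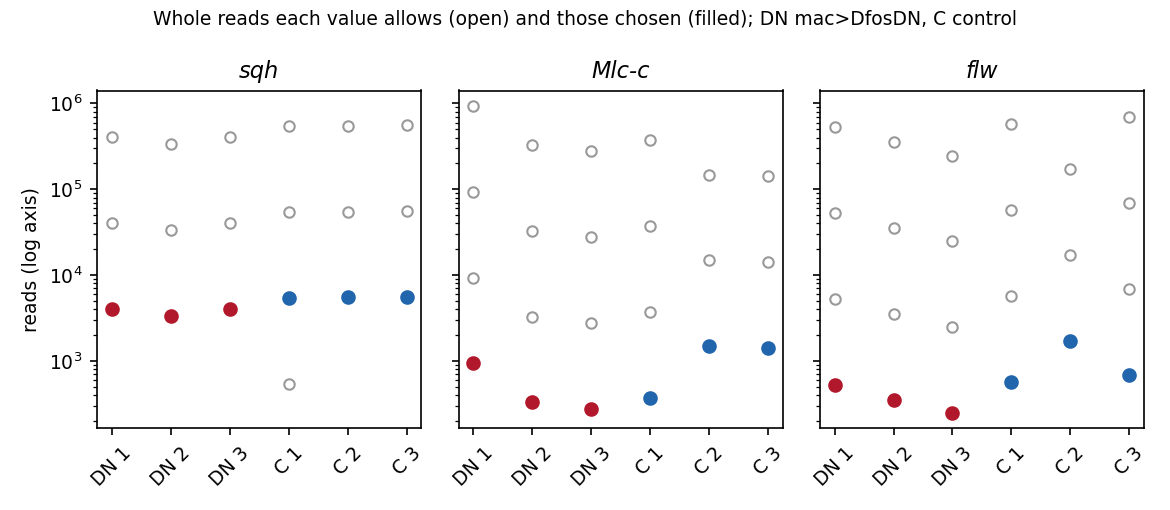
Reads that the deposited values of sqh, Mlc-c and flw allow in each library on a log axis, with open circles for the other powers of 10 and filled circles for those chosen (DN: mac>DfosDN, C: control). The chosen reads of sqh lie close together, with 1 value moved up from 541 to 5410, while those of Mlc-c and flw spread 5.57-fold and 6.75-fold after depth scaling, and at least 4.11-fold and 4.52-fold for any choice of circles.

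The catalytic subunit gene flw (FBgn0000711, chromosome X from 10385960 to 10409817) encodes the PP1 beta that dephosphorylates the regulatory light chain. It had 526, 355 and 247 reads in mac>DfosDN macrophages and 572, 1727 and 695 in control macrophages. Scaled to TPM these were 16.0, 12.3 and 7.55 in mac>DfosDN and 16.4, 50.8 and 23.1 in control libraries. All mac>DfosDN libraries were below all control libraries, by a narrow margin between the first library of each group, and the second control library stood far above the rest. The means were 11.9 ± 4.21 TPM in mac>DfosDN and 30.1 ± 18.3 TPM in control macrophages (SD, n = 3 each). On the log2 scale the difference of -1.16 (standard error 0.40, 95% interval -2.05 to -0.28) did not pass the adjustment, with an adjusted p = 0.179 from limma and 0.0749 with limma-voom. Without the second control library it was -0.71 (adjusted p = 0.411). The spread over the 6 libraries was 6.75-fold, and the placement with the smallest spread, 5260, 3550 and 2470 reads in mac>DfosDN and 5720, 1727 and 6950 in control libraries, would give -0.12 (adjusted p = 0.930).

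The targeting subunit gene Mbs (FBgn0005536, chromosome 3L from 16051959 to 16082026) encodes the protein that brings the phosphatase to myosin. It had 481, 603 and 604 reads in mac>DfosDN macrophages and 627, 722 and 675 in control macrophages. Reads were fewer in every mac>DfosDN library, but after scaling the groups overlapped, with 9.87 ± 1.76 TPM in mac>DfosDN and 11.3 ± 1.27 TPM in control macrophages (SD, n = 3 each). That is a log2 fold change of -0.18 with a 95% interval from -0.71 to 0.35 and a standard error of 0.24 (limma, adjusted p = 0.761), and it was -0.05 without the first mac>DfosDN library and -0.27 without the second. Its exon length of 7797 bases was taken from the values, since the annotated 8262 gave no whole reads. The ratio of flw over Mbs was 1.99, 1.07 and 0.746 in mac>DfosDN and 1.66, 4.36 and 1.88 in control libraries, which overlapped (2-sided exact permutation test, p = 0.3).

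The kinase gene Rok (FBgn0026181, chromosome X from 16624012 to 16637414) encodes the kinase that phosphorylates the regulatory light chain and inhibits the phosphatase through Mbs. It had 762, 855 and 723 reads in mac>DfosDN macrophages, against 954, 1128 and 802 in control macrophages. The second library was the highest of each group, and the groups overlapped. The means were 14.5 ± 2.39 TPM in mac>DfosDN and 16.8 ± 2.09 TPM in control macrophages (SD, n = 3 each), and the log2 fold change of -0.21 had a standard error of 0.22 and a 95% interval from -0.69 to 0.27 (limma, adjusted p = 0.683). It ran from -0.32 without the second mac>DfosDN library to -0.12 without the third and -0.11 without the second control library. The ratio of Mbs over Rok was 0.598, 0.668 and 0.791 in mac>DfosDN and 0.623, 0.606 and 0.797 in control libraries. The groups overlapped, with a difference of 0.02 on the log2 scale (2-sided exact permutation test, p = 1) whose sign changed in 3 of the 6 comparisons that left out a library.

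Strn-Mlck (FBgn0265045, chromosome 2R from 15946933 to 15989498) is a large gene of the titin family, known from muscle, some of whose products carry a myosin light chain kinase domain. Its values lay below 1 TPM, kept their decimal points and are exact reads. It had 74, 91 and 50 reads in mac>DfosDN macrophages and 122, 187 and 104 in control macrophages. All mac>DfosDN libraries lay below all control libraries, at 0.302 ± 0.107 TPM in mac>DfosDN and 0.541 ± 0.153 TPM in control macrophages (SD, n = 3 each), a ratio of 0.557. On the log2(TPM + 1) scale, which compresses such levels, the difference was -0.24, with a standard error of 0.23 and a limma adjusted p = 0.662, and it was -0.16 without the second control library. With limma-voom on the reads it was -0.89 (adjusted p = 0.237).

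Muscle markers are given beside it. All 9 that were tested of 10 muscle markers had a negative log2 fold change, and none passed the adjustment. Their summed reads were 891 to 1457 in mac>DfosDN and 1561 to 1974 in control libraries. In scaled TPM the sums overlapped, at 20.6 to 49.1 in mac>DfosDN and 40.2 to 51.7 in control libraries. Mlc2, the muscle regulatory light chain, had 140, 79 and 87 reads in mac>DfosDN and 283, 208 and 199 in control libraries (adjusted p = 0.0881 from limma). Mhc, the muscle myosin heavy chain, overlapped between the groups with 29, 30 and 81 reads in mac>DfosDN and 62, 39 and 57 in control libraries. No muscle marker was at 0 in all libraries. The part of muscle RNA in the Strn-Mlck values was not tested.

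The unconventional myosins were low by scaled TPM, where jar ranked 5697 and ck 6741 among the 7544 genes tested. By reads, jar ranked 4370 and ck 5296. jar (FBgn0011225, chromosome 3R from 24252826 to 24271233) encodes Myosin VI, which walks toward the pointed ends of actin filaments. It had 145, 150 and 64 reads in mac>DfosDN macrophages, against 170, 105 and 112 in control macrophages. The third mac>DfosDN library was the lowest of all, and the groups overlapped at 2.92 ± 1.28 TPM in mac>DfosDN and 2.95 ± 0.682 TPM in control macrophages (SD, n = 3 each). For jar the 95% interval ran from -0.79 to 0.68 around a log2 fold change of -0.06, whose standard error was 0.33 (limma, adjusted p = 0.955). It turned to 0.25 without the third mac>DfosDN library and to 0.08 without the first control library.

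The gene ck (FBgn0000317, chromosome 2L from 15044963 to 15057862) encodes Myosin VIIA, known for its part in bristles and denticles. It had 113, 81 and 19 reads in mac>DfosDN macrophages and 62, 63 and 57 in control macrophages. The control libraries agreed closely, whereas the mac>DfosDN libraries held both the highest and the lowest value. The means were 1.31 ± 0.865 TPM in mac>DfosDN and 1.06 ± 0.0349 TPM in control macrophages (SD, n = 3 each). Around a log2 fold change of 0.08 (standard error 0.33) the 95% interval ran from -0.66 to 0.82 (limma, adjusted p = 0.932), and the value was 0.45 without the third mac>DfosDN library.

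The gene didum (FBgn0261397, chromosome 2R from 7500147 to 7508625) encodes Myosin V, a cargo motor. It had 15, 20 and 0 reads in mac>DfosDN macrophages, against 5, 8 and 6 in control macrophages, and did not pass the filter on low reads. The 0 reads of the third mac>DfosDN library allow up to 3 reads, or 0.0603 TPM, a limit that covers counting error only. With no filter its log2 fold change was 0.14 (adjusted p = 0.745 from limma), and without the third mac>DfosDN library 0.29 (adjusted p = 0.599). didum shares 99 exon bases with mEFTu2 on the opposite strand, which had 383 reads on average, and whether counting used the strand is not given in the sources used here. Rok (278 bases, asRNA:CR45001) and Strn-Mlck (334 bases, Cyp4aa1 at 7.5 reads on average) also have opposite-strand neighbours. No restored gene carried the symbol asRNA:CR45001, so its level is not known here. The third mac>DfosDN library had the fewest reads of its group on 8 of the 10 genes, sqh and Mbs being the exceptions, although its total was the largest of the 3. It had the fewest on 29.0% of all genes tested, and it listed 8488 genes at 0, against 7342 and 7255 in the other mac>DfosDN libraries.

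**Figure D4:**
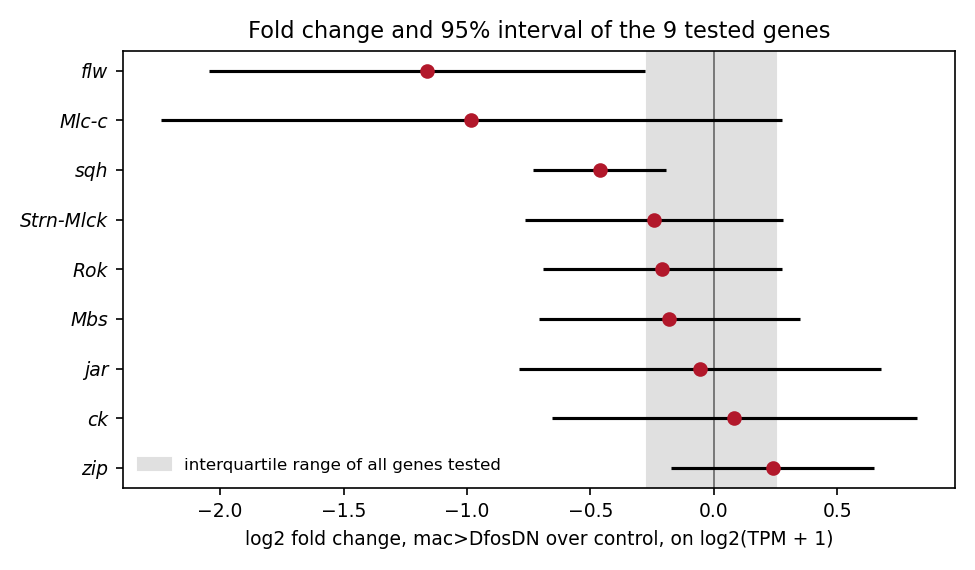
Log2 fold change of log2(TPM + 1), mac>DfosDN over control, of the 9 tested genes with its 95% interval from limma, and in grey the interquartile range of all 7544 genes tested. The intervals of flw and sqh lie below 0 before adjustment, the other 7 include 0, and none of the 9 passed the adjustment over all genes.

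The genes around the motor were taken from fixed lists. Of 8 other light chain kinases, PP1 subunits and calmodulin, 6 were tested and 0 passed the adjustment in either direction. Their median log2 fold change was 0.20, with 4 positive and 2 negative. Cam, the calmodulin that serves as a light chain of unconventional myosins, had 778, 899 and 578 reads in mac>DfosDN and 550, 597 and 627 in control libraries, which overlapped (log2 fold change 0.37, adjusted p = 0.507 from limma). The catalytic PP1 genes Pp1alpha-96A (0.21, adjusted p = 0.639) and Pp1-87B (0.18, adjusted p = 0.683) came next. With 3753 to 5255 reads in mac>DfosDN and 3695 to 4453 in control libraries, Pp1-87B had more reads than flw in every library.

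Of 10 other myosin heavy chain genes, 8 were tested and 0 passed the adjustment, with 5 negative and 3 positive fold changes and a median of -0.03. The smallest p values belonged to Myo31DF (log2 fold change -0.31, adjusted p = 0.642), a class I myosin known for left-right asymmetry, Myo61F (-0.44, adjusted p = 0.706), also of class I, and Myo28B1 (0.21, adjusted p = 0.779), all from limma. Summed over the list, these genes had 733 to 972 reads in mac>DfosDN and 699 to 1183 in control libraries.

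**Figure D5:**
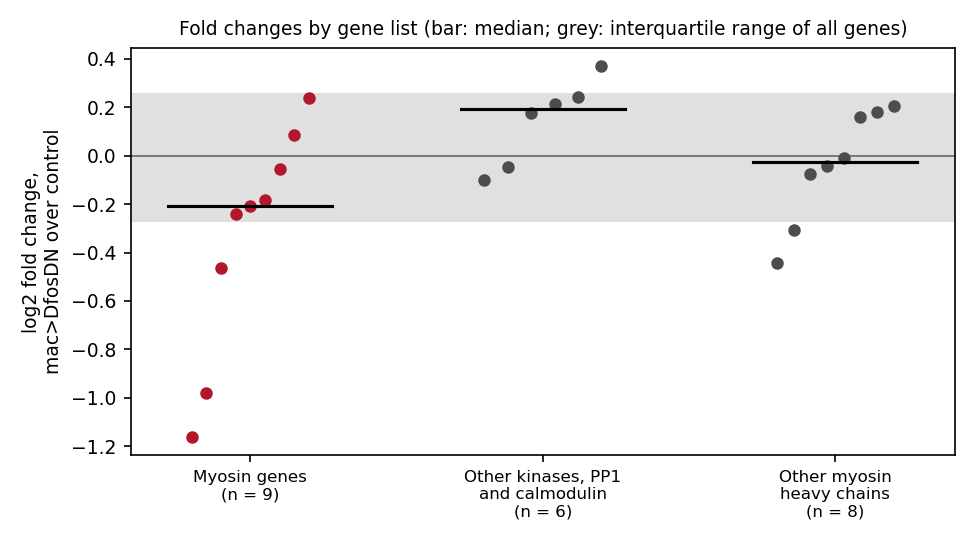
Log2 fold changes, mac>DfosDN over control, of the tested genes in the myosin set and in the lists of other kinases, PP1 subunits and calmodulin and of other myosin heavy chains, with a bar at each median and in grey the interquartile range of all genes tested. The myosin set has the lowest median, -0.21, with flw and Mlc-c, whose decimal points are the least secure, at its lower end.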

How the data were processed

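RNA of FACS-sorted embryonic macrophages was measured in 6 libraries, 3 of mac>DfosDN and 3 of control. According to the methods and the submitters' processing notes, QuantSeq 3′ libraries were read over 50 bp, mapped to BDGP6 with STAR 2.5.1b and counted with HTSeq 0.5.4p3. The values deposited by the authors behave as TPM, but those of 1 or more have lost their decimal point, so no counts were at hand and a voom fit of counts as in the study was only an alternative. Values below 1 are intact, and 97.9% to 98.4% of them per sample gave whole reads from exon lengths of BDGP6.54, a later annotation of the same assembly (tolerance 0.001). For the others, the power of 10 was taken from a negative binomial model that did not use the groups, with a posterior limit of 0.9. Of 17494 genes, 5335 were at 0 throughout, 42 lacked an exon length and 6 fitted no whole number of reads. The model placed 11758 and left 353 out as uncertain, and for 142 the length itself came from the values. Restored TPM summed to between 997659 and 1002578 per sample when the 353 uncertain genes were included at their most probable reads.

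Genes with at least 10 reads at the median depth in 3 samples and 15 in all were tested with limma 3.58.1 (R 4.3.3, trend) on log2(TPM + 1) after TMM scaling (30% and 5% trimmed), with Benjamini-Hochberg adjustment at 0.05 over all genes. Ratios and permutation tests used Python 3.11.15, NumPy 2.4.6 and SciPy 1.17.1. The steps were run on simulated reads for genes already placed, with the same relative spread for every gene. That setting does not stand for genes that spread as widely within groups as Mlc-c and flw. The 10 genes and the lists were chosen with earlier results of these data known. All 10 genes are named, and from each other list those with an adjusted p under 0.05 and up to the 3 with the smallest p, of which the markers are given in part. Mhc, elav, ush, PPO1 and PPO2 are named for their roles, after their values were seen. A further list is not reported here. The methods describe the 3 samples of a group as separately sorted biological replicates. The intervals of the log2 fold changes come from the limma standard errors, which rest on the variation between libraries. The limit from reads, given for didum, covers counting error only. Alternatives covered the restoration, pseudocount, voom, scaling, filter, a replicate block and leaving out each library.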

Additional observations from a re-analysis of the deposited data

How the results depend on the processing

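No myosin gene passed the adjustment under any of the 19 alternatives run, and the signs of zip, Mbs, Rok, Strn-Mlck and flw held in every one that could be fitted. The numbers of all genes lower and higher in mac>DfosDN, 64 and 51, were 39 and 33 with a posterior limit of 0.99, 127 and 106 with a mean for each group in the restoration model, 12 and 6 with the smallest power of 10 for every value, 5 and 1 with no filter, and 120 lower with limma-voom. Leaving out each library in turn gave 9 to 25 lower and 3 to 26 higher, with fewer samples in each fit. Same-numbered samples showed no shared deviation from their group means (correlations -0.04, 0.03 and 0.03). With 3 samples a group this cannot tell whether they were handled together. The replicate block gave 30 lower and 26 higher. With the smallest power for every value sqh turned to 0.64, zip over sqh to -0.40 and Mlc-c over sqh to -1.64 without overlap, all because the first control library then has 541 reads on sqh. Chosen after seeing the data, the placement of smallest spread turned Mlc-c to 0.11. The fold change of ck turned to -0.0024 with a pseudocount of 0.1 and -0.066 with limma-voom, and ran from -0.14 (without the first mac>DfosDN library) over -0.04 (without the second) to 0.45 when libraries were left out. That of jar ran from -0.24 to 0.25 (without the third mac>DfosDN library), with 0.08 without the first control library. Mbs over Rok ran from -0.084 (without the third mac>DfosDN library) to 0.15, with -0.03 and -0.05 without the first and the second control library. For ck, jar and Mbs over Rok the cause was not tested. At a posterior limit of 0.99 Mlc-c and flw were set aside, and with a mean for each group Mlc-c was. Depth left didum, with at most 20 reads in a library, outside the test.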

Other observations

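Among the other myosin heavy chains, Myo61F had 27, 9 and 18 reads in mac>DfosDN macrophages and 16, 8 and 122 in control macrophages, so that the third control library alone carried its higher control mean. Of the 4 epithelial markers, 3 had a negative and 1 a positive log2 fold change. Only sdt, which encodes an apical polarity scaffold, was lower in all mac>DfosDN libraries, as were 11.4% of all genes tested. Its log2 fold change of -1.22 was short of the threshold (limma, adjusted p = 0.0535). Summed TPM of the 4 epithelial markers was 15.5 to 29.8 in mac>DfosDN and 24.6 to 31.7 in control libraries.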
